A study of Ranunculus trichophyllus with 6 samples.

Results

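The genes described here were the *Ranunculus trichophyllus* homologs of *Arabidopsis* genes annotated with the Gene Ontology terms response to water deprivation or response to osmotic stress. Assembled transcripts were taken whose *Arabidopsis* protein match carried either term with an evidence code other than no data, and matches that also carried terms for abscisic acid (ABA), wounding, jasmonic acid, chitin or water channel activity were left out, together with 1 further match. Transcripts with the same match were summed to 1 homolog. This gave 68 homologs of 8613 in all, made of 144 of the 17559 transcripts with an *Arabidopsis* match. Of the 68, 39 carried only the water deprivation term, 20 only the osmotic stress term and 9 both, and 61 had at least 1 of the terms from an experimental evidence code.

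RNA was sequenced from *R. trichophyllus*, an amphibious plant that makes broad leaves on land and thin cylindrical leaves under water. Seedlings were raised at 22 °C with 16 h of light and 8 h of dark, and the aquatic plants were 1-week-old seedlings that had been submerged. The RNA came from shoots without cotyledons and hypocotyls, in 3 terrestrial and 3 aquatic libraries. Replicate 1 of both conditions was labelled as leaf at 14 days, and replicates 2 and 3 as leaf with shoot apical meristem at 11 days, so tissue and age changed together between the harvests and cannot be told apart. The labels name no genotype, transgene or agent other than the submergence. The study calls the libraries independent experiments, but the labels do not say how many plants each pooled, so the p-values measure only the spread between these samples.

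When water is short or solutes are high outside the cell, plant cells lose turgor. Cells respond by making ABA, by releasing calcium in the cytosol, by activating SnRK2 protein kinases, and by making protective proteins and osmolytes, while the cuticle limits loss through the surface. A submerged shoot is not exposed to dry air. The annotation terms come mostly from experiments in *Arabidopsis*, and a role named below is that of the *Arabidopsis* gene.

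The libraries held between 25345718 and 33978729 counts, of which 54.2% to 56.3% fell on homologs, except for aquatic replicate 1 with 33.4%, where 3 transcripts took 36.2% of all counts. Aquatic replicate 2 had counts for 1641 of the 1730 transcripts with a fungal match, against 54 to 161 in the other libraries. Of 8 leaf photosynthesis markers, 5 were found. Their summed level, in counts per 1000000 homolog counts after TMM scaling of the libraries (CPM), was between 39528 and 66285 CPM in every library. Single markers differed: *RBCS1A* was lower under water (edgeR, log2 fold change -1.44, adjusted p = 0.0335, and 0.0878 with the replicate number as a block). The others did not pass, with *RCA* at -0.91 and *GAPB* at 0.60. The root markers found summed to at most 2.43 CPM and no flower marker was found. Of 14 shoot apex and dividing cell markers, 9 were found, and they summed to 35.1 and 21.8 CPM in terrestrial and aquatic replicate 1, to 438 and 579 CPM in terrestrial replicates 2 and 3, and to 301 and 288 CPM in aquatic replicates 2 and 3, with the meristem genes *STM* and *KNAT1* at 0 in both 14-day libraries. Of 7 markers of guard cells and their lineage, 4 were found, and they summed to 35.8 to 88.1 CPM on land and 0.811 to 7.7 CPM under water, and their part in the lower values below was not tested. In such samples, fewer cells of a type and less RNA per cell cannot be told apart.

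Between the conditions, 7 of the homologs were higher and 3 were lower in aquatic plants (edgeR, adjusted p under 0.05, harvest as a term in the fit). The annexins *ANNAT3* and *ANN5*, which bind calcium and membrane lipids, had the smallest adjusted p and rose, as did the membrane transporter *ZIFL1*, the papain-like protease *RD19*, the carotenoid cleavage dioxygenase *CCD1*, the prenyltransferase *LEW1* and the autophagy protein *ATG18a*. The cellulose synthase-like gene *CSLD5*, the glucan phosphorylase *PHS2* and the alcohol dehydrogenase *ADH1* fell. Of the 68 homologs, 59 passed the filter on low counts, so 7 of 59 stood against 9.6% of all 8154 tested homologs that were higher, and 3 of 59 against 6.78% that were lower, and both shares were near this background. The median log2 fold change was 0.22 over the 59 and -0.02 over all tested homologs, with 36 positive and 23 negative values. In 11 of the 59, every aquatic library was above every terrestrial one (13.7% of all tested homologs), and in 9 every aquatic library was below (11.8%). The homologs thus moved both ways, and most did not pass the test. The edgeR counts by role given below stand against the same 9.6% and 6.78%.

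With the replicate number as a block in the fit, 2 remained higher (*ANNAT3* and *ANN5*, against 4.01% of all tested homologs) and 1 remained lower (*PHS2*, against 1.45%). Within the 11-day libraries alone, 9 were higher (10.8% of all) and 12 were lower (8.93%), and the single pair of 14-day libraries gives no test of its own. Both shares, even if taken of all 68, were above those over all tested homologs, a difference that was not tested. The lower ones included *LEA4-5* and *SHN1*, which failed the filter on low counts over all libraries. Here they passed it through their terrestrial counts, with 0 and 1 aquatic counts for *LEA4-5* and 5 and 5 for *SHN1*. Leaving out 1 of the 11-day libraries removed most calls. Without aquatic replicate 2, no homolog of the whole table passed, although 14 of these homologs were higher and 11 lower at an unadjusted p under 0.05. In that fit 2478 of all tested homologs had an unadjusted p under 0.05. Without terrestrial replicate 2 only *ANNAT3* passed (1.45% of all homologs higher and 0.474% lower), as it did without terrestrial replicate 3 (0.657% and 0.195%). Without aquatic replicate 3 there were 4 higher (5.41%) and 0 lower (1.88%, with 8 at an unadjusted p under 0.05). In either direction, 24 of these homologs and 2549 of all tested homologs had an unadjusted p under 0.05 there. Without terrestrial replicate 1 there were 9 higher (10.3% of all homologs) and 12 lower (8.53%) of 62 tested. Without aquatic replicate 1 there were 8 (10.6%) and 12 (9.2%) of 62. In both fits the harvest term took up the remaining 14-day library. The condition effect thus came from the same 11-day libraries as above, and these fits are no separate check. DESeq2, fitted to all libraries, called 16 of the 59 higher (16.8% of all tested homologs) and 12 lower (16.1%). With DESeq2 both shares were above those over all tested homologs, a difference that was not tested.

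**Figure D1:**
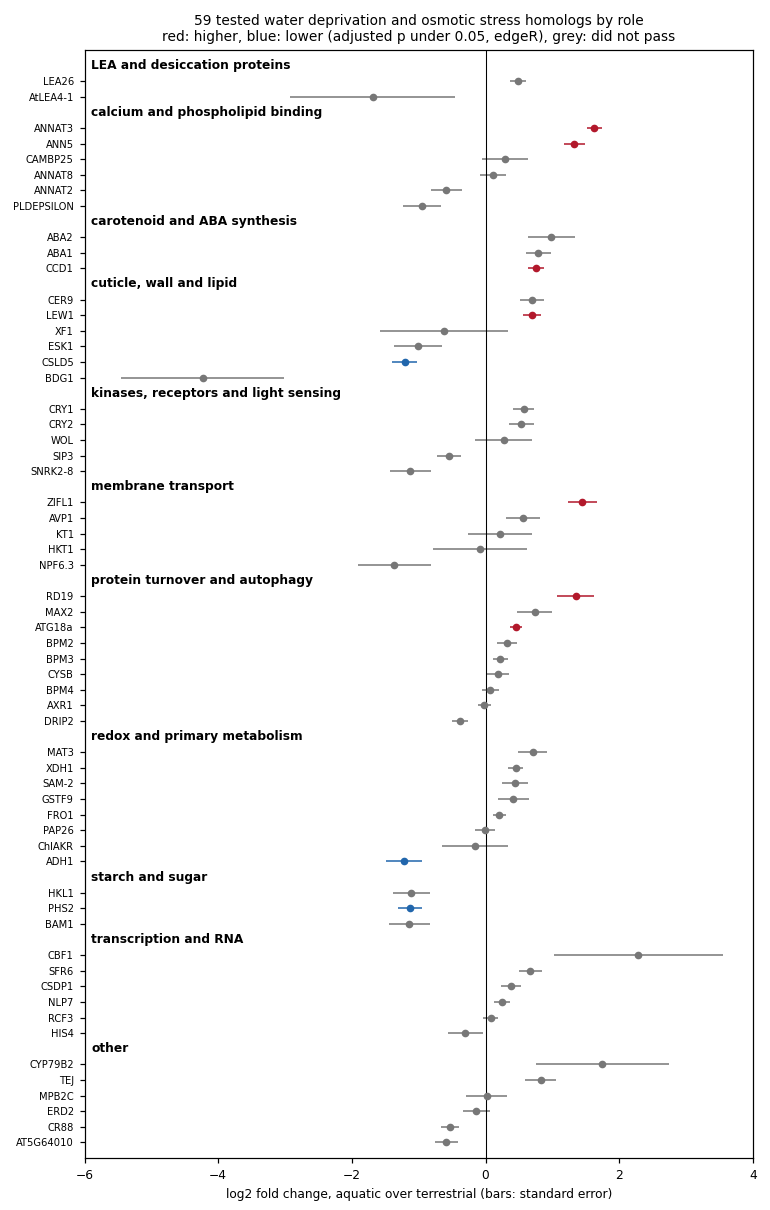
The log2 fold change between aquatic and terrestrial plants (horizontal axis) is plotted for each of the 59 tested homologs, grouped by role, with bars of 1 standard error. The 3 starch and sugar genes lie to the left of 0 and the 3 carotenoid and ABA synthesis genes to the right, while most other roles lie on both sides.

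Annexins are calcium-dependent proteins that bind membrane phospholipids, and 4 of them were among the 68. *ANNAT3* had 25, 17.4 and 17.6 CPM in terrestrial replicates 1, 2 and 3 and 80.5, 56.5 and 49.5 CPM in aquatic replicates 1, 2 and 3. The lowest aquatic library was thus well above the highest terrestrial one, and the log2 fold change was 1.63 ± 0.11 (SE, adjusted p = 0.00724, and 0.0246 with the replicate block). *ANN5* had 114, 73 and 76.1 CPM on land and 369.8, 169 and 161 CPM under water, 1.33 ± 0.15 higher on the log2 scale (adjusted p = 0.0134, and 0.0439 with the block). Its 14-day library was the highest in both conditions, and the groups did not overlap. The value sums 2 transcripts. With edgeR c48875_g1_i2, of 50% identity, was higher (1.41 ± 0.26, adjusted p = 0.0268, and 0.0697 with the block). The other, c48794_g1_i1, of 53% identity, had 711, 142 and 190 counts on land and 363, 453 and 383 counts under water and did not pass (0.66 ± 0.41, adjusted p = 0.353).

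The other annexins did not pass over the whole set. *ANNAT2* had 172, 387 and 400.1 CPM on land and 179.9, 203 and 217 CPM under water, with terrestrial replicate 1 just below the aquatic values and the other land libraries above them, -0.59 ± 0.23 on the log2 scale (adjusted p = 0.132). Within the 11-day libraries it was lower, opposite to *ANNAT3* and *ANN5* (-0.91 ± 0.11, adjusted p = 0.0152). *ANNAT8* had 27.2, 105 and 109.9 CPM and 26, 97.6 and 149.6 CPM, and here the harvest separated the libraries and the condition did not (0.11 ± 0.19). The calmodulin-binding protein *CAMBP25* had a log2 fold change of 0.29 ± 0.35. The phospholipase D gene *PLDEPSILON*, whose enzyme cleaves membrane phospholipids into the messenger phosphatidic acid, was low, at 2.17, 1.7 and 1.61 CPM on land and 1.53, 0.757 and 0.678 CPM under water, with non-overlapping groups that did not pass (-0.95 ± 0.28, adjusted p = 0.0764).

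**Figure D2:**
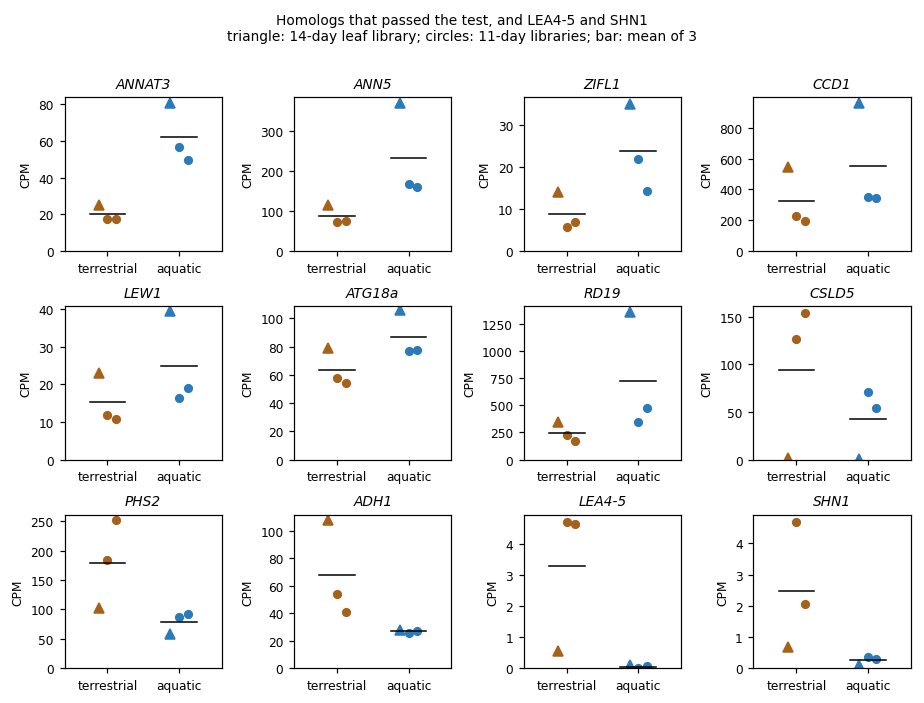
Each panel plots the CPM (vertical axis, from 0) of 1 homolog in the 3 terrestrial and 3 aquatic libraries, with a triangle for the 14-day leaf library, circles for the 11-day libraries and a bar for the mean of 3. The 10 homologs that passed come first, and *LEA4-5* and *SHN1*, which were under the filter on low counts, come last. In *CSLD5* both triangles lie near 0.

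Late embryogenesis abundant (LEA) proteins protect other proteins and membranes in drying cells, and 5 LEA or desiccation genes were among the 68. *LEA26* was the only abundant one, at 187, 199.7 and 233 CPM on land and 265, 285 and 314 CPM under water. Every aquatic library was above every terrestrial one, but the log2 fold change of 0.48 ± 0.12 did not pass (adjusted p = 0.054, and 0.00244 with DESeq2). *LEA4-5* had 9, 69 and 72 counts in terrestrial replicates 1, 2 and 3 and 1, 0 and 1 counts in the aquatic ones. Under water it was almost without counts, and 150 counts against 2 gave a ratio of 67.7 (exact 95% interval 18.4 to 564, which covers counting error only). It failed the filter on low counts, and without that filter its adjusted p was 0.0193. *AtLEA4-1* was also low, with 6, 28 and 35 counts on land and 12, 0 and 6 counts under water, and overlapped between the conditions (log2 fold change -1.69 ± 1.24). The LEA family gene AT3G02480 and the desiccation-induced *DSI-1VOC* had at most 8 counts in any library, too few to compare.

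The cuticle, wall and lipid genes went both ways, with 1 higher and 1 lower of 6 tested. *SHN1*, an AP2-type transcription factor that switches on cuticle genes, had 11, 69 and 32 counts in the terrestrial and 1, 5 and 5 counts in the aquatic libraries. The lowest terrestrial library was above the highest aquatic one in CPM, and the ratio of 112 counts to 11 was 9.19 (exact 95% interval 4.94 to 18.9). It was under the filter on low counts as well, and without that filter its log2 fold change was -3.26 ± 0.50 (adjusted p = 0.0206). With *LEA4-5* and *SHN1*, the fit without the filter called 5 lower (6.53% of 8589 homologs) and 7 higher (9.19%). *BDG1*, an enzyme of cutin deposition, had 76.2, 48.1 and 30.9 CPM on land and 0, 6.12 and 3.08 CPM under water. All aquatic libraries were far below all terrestrial ones, yet the difference did not pass in the whole set (-4.23 ± 1.22, adjusted p = 0.0729), whereas within the 11-day libraries it was -3.1 ± 0.42 (adjusted p = 0.0161). 

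*LEW1*, which makes the dolichol used in protein glycosylation, had 23.2, 11.8 and 10.7 CPM on land and 39.4, 16.4 and 19 CPM under water. In each experiment the aquatic library was higher, but across harvests the groups overlapped, and the log2 fold change was 0.69 ± 0.13 (adjusted p = 0.0329, and 0.0841 with the replicate block). *CER9*, a ubiquitin ligase that restrains cuticle lipid synthesis in *Arabidopsis*, had 399, 252 and 215 CPM and 522, 367 and 472 CPM, 0.69 ± 0.18 on the log2 scale (adjusted p = 0.0579, and 0.0362 within the 11-day libraries). *ESK1*, which acetylates the wall polymer xylan, was low, at 0.992, 2.86 and 4.63 CPM on land and 0.27, 1.86 and 2.4 CPM under water (-1.01 ± 0.36, adjusted p = 0.107).

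*CSLD5*, a cellulose synthase-like protein that builds new walls in dividing cells, had 1.12, 127 and 154 CPM in terrestrial and 0.36, 71.5 and 54.7 CPM in aquatic libraries. Nearly all of its signal was in the 11-day libraries with the shoot apex, and there both aquatic values were below both terrestrial ones. The log2 fold change was -1.21 ± 0.18 (adjusted p = 0.0193, and 0.0573 with the block). Of the 9 shoot apex and dividing cell markers found, 5 were lower in aquatic plants (1, *CLV1*, with the block). These were *CLV1*, *KNOLLE*, *CDKB2;1*, *CYCB1;2* and *AUR1*. The meristem genes *STM*, *KNAT1* and *KNAT2* went the other way, with log2 fold changes of 0.40, 0.92 and 0.32 that did not pass. The median log2 fold change of the 9 markers was -0.82. Their summed level in the 11-day libraries was 438 to 579 CPM on land and 288 to 301 CPM under water. Their part in the result was not tested.

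The 3 genes of starch and sugar use were lower under water by similar amounts, and 1 of them passed. *PHS2*, the cytosolic glucan phosphorylase, had 102, 185 and 252 CPM on land and 57.3, 86.8 and 92.7 CPM under water. The groups did not overlap, and the log2 fold change was -1.13 ± 0.18 (adjusted p = 0.0201, and 0.0486 with the block). *BAM1*, a plastid beta-amylase that breaks down starch, had 543, 395 and 316 CPM and 445, 118 and 123 CPM. The 14-day pair was nearly level and the 11-day pairs were not, so that the whole set gave -1.14 ± 0.30 (adjusted p = 0.0625) and the 11-day libraries alone -1.56 ± 0.15 (adjusted p = 0.010). *HKL1*, a hexokinase-like protein, had 40.4, 54.6 and 96.8 CPM and 13.3, 38.5 and 44 CPM, lower under water in each experiment but overlapping across harvests (-1.11 ± 0.28, adjusted p = 0.0569).

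ABA is made from carotenoids, and the 3 homologs of this group had higher means under water. *CCD1*, which cuts carotenoids into volatile apocarotenoids, had 545, 228 and 193 CPM on land and 958, 352 and 346 CPM under water. The aquatic library was higher in each experiment, and the groups overlapped because terrestrial replicate 1 lay above both 11-day aquatic libraries. The log2 fold change was 0.76 ± 0.12 (adjusted p = 0.0214, and 0.0584 with the block). *ABA1*, the zeaxanthin epoxidase of ABA synthesis, showed the same overlap, with 775, 335 and 245 CPM on land and 1102, 510.3 and 595 CPM under water (0.79 ± 0.19, adjusted p = 0.0505, and 0.0372 within the 11-day libraries). *ABA2*, the dehydrogenase that makes ABA aldehyde, had 34, 26.9 and 33 CPM and 32.4, 80.7 and 87.7 CPM. The 11-day aquatic libraries stood out and the 14-day one did not, with 0.99 ± 0.36 over the whole set (adjusted p = 0.115) and 1.49 ± 0.15 within the 11-day libraries (adjusted p = 0.0104). This value sums 8 transcripts. The most abundant, of 67% identity to the *Arabidopsis* protein, did not pass over the whole set (-0.09 ± 0.31), and the transcripts that were higher had 48% to 50% identity.

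Of the membrane transport genes, 1 of 5 passed. *ZIFL1*, a carrier that affects potassium and auxin transport in *Arabidopsis*, had 14.1, 5.78 and 6.81 CPM on land and 35.2, 21.9 and 14.2 CPM under water. The aquatic libraries were all above the terrestrial ones, by a narrow gap between aquatic replicate 3 and terrestrial replicate 1, and the log2 fold change was 1.45 ± 0.22 (adjusted p = 0.0192, and 0.055 with the block). The nitrate transporter and sensor *NPF6.3* had 407, 307 and 336 CPM and 52.4, 250.1 and 166 CPM. It was below all land values in each aquatic library, most in the 14-day one, but did not pass (-1.36 ± 0.55, adjusted p = 0.141). *AVP1*, the proton pump of the vacuole driven by pyrophosphate, was among the most abundant homologs, at 897, 1382 and 1781 CPM on land and 2101, 1815 and 1897 CPM under water (0.56 ± 0.26). The sodium transporter *HKT1* and the potassium channel *KT1* overlapped widely between the conditions, with -0.09 ± 0.71 and 0.22 ± 0.48.

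None of the 5 kinases, receptors and light receptors passed with edgeR, with 4 at an unadjusted p under 0.05 and 3 called by DESeq2. Over all 8154 tested homologs, 3063 had an unadjusted p under 0.05, and DESeq2 called 16.8% higher and 16.1% lower. *SNRK2-8*, a kinase of the SnRK2 family, had 26.5, 24.8 and 40 CPM on land and 19.9, 11.7 and 11.6 CPM under water. All aquatic libraries were lower, and the log2 fold change was -1.12 ± 0.31 (adjusted p = 0.0679, and 0.0279 within the 11-day libraries). *SIP3*, a kinase that works with calcineurin B-like calcium sensors, had 748, 452 and 498 CPM and 465, 403 and 280 CPM (-0.55 ± 0.18, adjusted p = 0.0934). The cytokinin receptor *WOL*, which in *Arabidopsis* also acts in the response to osmotic stress, had 22, 52.5 and 37 CPM and 62.6, 37.5 and 34.2 CPM. Its 14-day aquatic library was the highest and the others overlapped (0.27 ± 0.43). The blue light receptors *CRY1* and *CRY2* had log2 fold changes of 0.57 ± 0.16 and 0.54 ± 0.19.

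Of 6 tested transcription and RNA genes, none passed with edgeR, and *SFR6* had an unadjusted p under 0.05 and was called by DESeq2. *SFR6*, a subunit of the Mediator complex needed for cold-induced transcription, had 70.7, 87.5 and 75.9 CPM on land and 145, 102 and 128 CPM under water, with no overlap (0.67 ± 0.18, adjusted p = 0.0606). The cold and dehydration factor *CBF1* had 5, 23 and 16 counts on land and 19, 176 and 4 counts under water, so that aquatic replicate 2 held most of them (2.29 ± 1.26, adjusted p = 0.247). This was also the library with counts for 1641 of the 1730 transcripts with a fungal match, and the part of that difference in the *CBF1* value was not tested. *NLP7*, *CSDP1* and *RCF3* had log2 fold changes from 0.08 to 0.38. *HIS4* stands for 8 histone H4 loci listed in 1 match entry, since their proteins are alike, and had 13.2, 389.8 and 474 CPM on land and 18.1, 283 and 266 CPM under water (-0.30 ± 0.26, and -0.65 ± 0.14 within the 11-day libraries, adjusted p = 0.446 and 0.0416).

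Protein turnover and autophagy had 2 of 9 higher. *RD19*, a papain-like cysteine protease named for its response to dehydration, had 346, 228 and 169 CPM on land and 1354, 344 and 471 CPM under water. The 14-day aquatic library was several times above all others, aquatic replicate 2 lay just under terrestrial replicate 1, and the log2 fold change was 1.35 ± 0.28 (adjusted p = 0.0376, and 0.0946 with the block). *ATG18a*, needed to form autophagosomes, had 79.1, 57.6 and 54 CPM and 106, 77.1 and 77.5 CPM, a small change with tight replicates (0.45 ± 0.09, adjusted p = 0.0343, and 0.0837 with the block). The F-box protein *MAX2* of strigolactone signalling had 0.73 ± 0.26 (adjusted p = 0.107). The 3 *BPM* genes, adaptors of a cullin ubiquitin ligase, lay between 0.07 and 0.32, and the cystatin *CYSB* and the RUB-activating subunit *AXR1* were at 0.19 and -0.02. *DRIP2*, a ubiquitin ligase that targets the drought factor DREB2A in *Arabidopsis*, was at -0.38 ± 0.12 (adjusted p = 0.0831).

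Among 8 tested redox and primary metabolism genes, *ADH1* fell. This fermentation enzyme had 108, 54 and 41.2 CPM on land and 27.7, 25.8 and 26.8 CPM under water, so the aquatic libraries lay close together below a wider terrestrial range (-1.22 ± 0.27, adjusted p = 0.0435, and 0.103 with the block). The S-adenosylmethionine synthetases *MAT3* and *SAM-2* had 0.71 ± 0.22 and 0.44 ± 0.20, and every aquatic library was above every terrestrial one in both. The xanthine dehydrogenase *XDH1* was at 0.45 ± 0.12 (adjusted p = 0.0567). *GSTF9*, *FRO1* and *PAP26*, a glutathione transferase, a subunit of respiratory complex I and an acid phosphatase, were between -0.01 and 0.42. *ERD5*, the proline dehydrogenase that removes the osmolyte proline, had 6, 0 and 0 counts on land and 31, 10 and 1 counts under water, under the filter, with most of them in the 14-day aquatic library.

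In the remaining group none of 6 tested homologs passed with edgeR, with 3 at an unadjusted p under 0.05 and 3 called by DESeq2. These stand against 3063 of all 8154 at an unadjusted p under 0.05, and 16.8% higher and 16.1% lower with DESeq2. The chloroplast chaperone *CR88* had 1954, 1816 and 1678 CPM on land and 1522, 1204 and 1068 CPM under water, with no overlap (-0.53 ± 0.14, adjusted p = 0.0588, and 0.0413 within the 11-day libraries). *TEJ*, a poly(ADP-ribose) glycohydrolase, had 6.01, 8.85 and 11.3 CPM and 15, 16.6 and 13.7 CPM, again without overlap (0.83 ± 0.23, adjusted p = 0.0678). AT5G64010 was lower in every aquatic library (-0.58 ± 0.17, adjusted p = 0.0741). *CYP79B2*, an enzyme that turns tryptophan into indole-3-acetaldoxime, had 70, 40 and 59 counts on land and 43, 502 and 79 counts under water. Of these, 1 transcript held 469 counts, 459 of them in aquatic replicate 2, so the log2 fold change of 1.75 ± 0.99 rests on that library. *ERD2* and *MPB2C* were at -0.14 and 0.02. The beta-glucosidases *PYK10* and *BGLU21* and AT4G23670 had no count in any library, which allows a level of up to 0.185 to 0.270 CPM (3 counts in a library). Their transcripts had 100%, 96% and 100% identity to the *Arabidopsis* protein, against a median of 65% over the 144 transcripts. Whether these sequences come from *R. trichophyllus* was not tested. *GRP7*, a glycine-rich RNA-binding protein, was at 1.57 CPM in terrestrial replicate 2 and 2.46 CPM in aquatic replicate 3 and at 0 in the others.

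Between the harvests, 13 of the 59 homologs were higher (15.4% of all tested homologs) and 7 were lower (18.4%) in the 14-day leaf libraries. The harvest effect on the log2 scale was -7.11 ± 0.27 for *CSLD5* (adjusted p = 0.00206) and, for *HIS4*, the histone H4 group, -4.45 ± 0.35 (adjusted p = 0.00359). *ESK1* followed with -2.26 ± 0.43 and the annexin *ANNAT8* with -2.11 ± 0.22 (adjusted p = 0.018 and 0.00577). The other homologs lower at 14 days were *HKL1*, *PHS2* and the complex I subunit *FRO1*. Of the 9 shoot apex and dividing cell markers, 8 were lower at 14 days, with a median log2 fold change of -6.22, and their part in these harvest differences was not tested.

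*CCD1* had the largest increase at 14 days, 1.41 ± 0.12 (adjusted p = 0.00441), followed by *RD19* with 1.29 ± 0.28 and *BAM1* with 1.29 ± 0.31 (adjusted p = 0.0253 and 0.0316). *ABA1*, *LEW1*, *ZIFL1*, *ANN5*, *ANNAT3*, *ATG18a*, *CRY1*, *NLP7*, *XDH1* and *RCF3* were also higher. Harvest and condition were estimated from the same 6 libraries, so which homologs passed for both was not read as a result. With the libraries scaled to all transcripts instead of homologs, 7 were higher (7.93%) and 11 lower (25.4%) at 14 days. The count of higher homologs was 7 (6.52%) without terrestrial replicate 2, 5 (5.76%) without terrestrial replicate 3 and 7 (9.46%) without aquatic replicate 3, and that of lower ones was 4 without terrestrial replicate 3 (7.55%) or aquatic replicate 2 (11.2%). The share over all homologs fell in these fits as well.

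**Figure D3:**
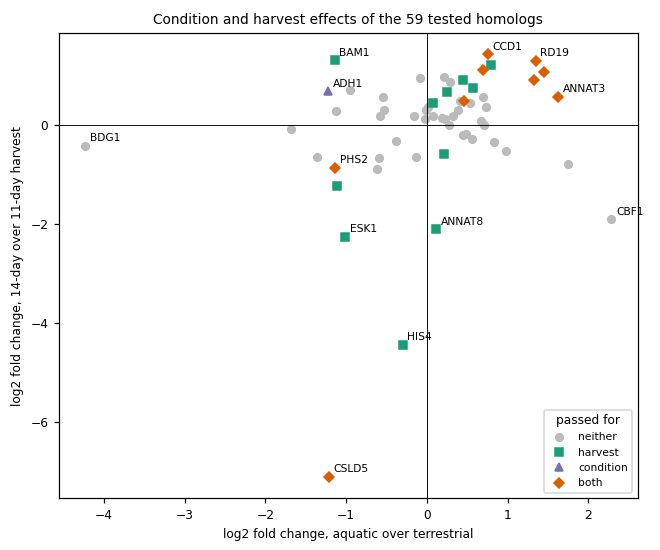
For the 59 tested homologs, the log2 fold change between aquatic and terrestrial plants (horizontal axis) is set against that between the 14-day and the 11-day harvest (vertical axis), with a symbol for the terms that passed. *CSLD5* and *HIS4* lie lowest, at -7.11 and -4.45 on the vertical axis.

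In 4 homologs the effect of water differed between the harvests (interaction term, 4.61% of all tested homologs passed). At 14 days there is a single pair of libraries, so the spread was taken from the 11-day ones. The aquatic library of that pair was the one with 33.4% of its counts on homologs, and its part in these differences was not tested. *XF1*, the squalene epoxidase of sterol synthesis, had 86.9, 56.4 and 58.7 CPM on land and 7.03, 71.5 and 94 CPM under water. Its 14-day aquatic library was far under all the others, while at 11 days the aquatic libraries were the higher ones, a difference of -4.15 ± 0.32 on the log2 scale (14-day minus 11-day effect, adjusted p = 0.0103). *ChlAKR*, a chloroplast aldo-keto reductase that detoxifies aldehydes, had 20.9, 40 and 47.1 CPM and 52.5, 22.1 and 25.8 CPM. It was higher under water at 14 days and lower at 11 days (-0.86 ± 0.16 within those libraries, adjusted p = 0.0293), a difference between harvests that passed (2.19 ± 0.27, adjusted p = 0.0258). *BDG1* was lower under water in both harvests but had 0 counts in the 14-day aquatic library (-10.02 ± 1.65, adjusted p = 0.0475, a fitted value against 0 that is no bound). *ABA2*, as a sum of 8 transcripts of 48% to 67% identity, was higher under water at 11 days alone (-1.56 ± 0.26, adjusted p = 0.0479). These rest on few libraries: without terrestrial replicate 2 or terrestrial replicate 3, 1 of the differences passed, and without aquatic replicate 2 or aquatic replicate 3, 7 and 8 did.

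**Figure D4:**
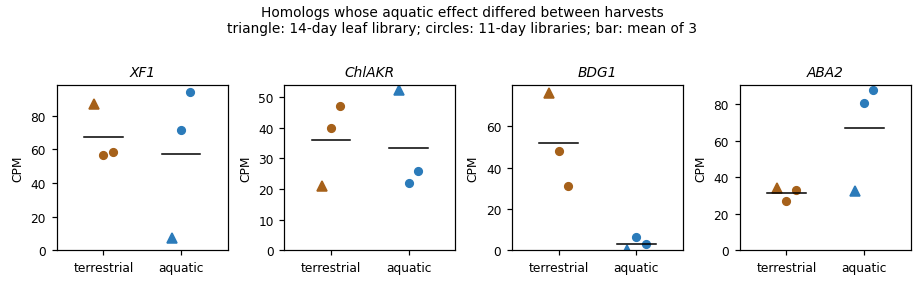
Each panel plots the CPM (vertical axis, from 0) of 1 homolog in the terrestrial and aquatic libraries, with a triangle for the 14-day leaf library, circles for the 11-day libraries and a bar for the mean of 3. The triangle and the circles move in opposite directions between the conditions in *XF1* and *ChlAKR*.

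Of the 144 transcripts behind the homologs, 117 were tested one by one, and 10 were higher (6.42% of 58039 tested transcripts) and 9 lower (4.04%). The shares over all transcripts here include those without an *Arabidopsis* match, so they are no like set. Both shares of the 117 were above them, a difference that was not tested. With the replicate block these counts were 4 (4.07%) and 2 (1.65%). Without terrestrial replicate 2 there were 2 higher (2.62% of all transcripts) and 4 lower (1.06%), and without terrestrial replicate 3 there were 2 (1.9%) and 1 (0.683%). Without aquatic replicate 2 there were 4 higher (2.17%) and 3 lower (0.872%), and without aquatic replicate 3 there were 6 (5.32%) and 4 (2.08%). Without terrestrial replicate 1 or aquatic replicate 1, 17 were lower (4.14% and 4.42%). In 25 of the 32 homologs with at least 2 tested transcripts, all transcripts had the same sign, and no homolog had transcripts that passed in both directions. The main exception in size was *HKT1*. Its transcript c58972_g1_i12 had 72, 86 and 62 counts on land and 133, 556 and 304 counts under water and was higher (2.1 ± 0.40, adjusted p = 0.0289, and 0.0391 with the block). Another of its transcripts, c53820_g3_i3, had 414, 137 and 79 counts and 7, 53 and 18 counts (-2.67 ± 0.87, adjusted p = 0.114). The value of *HKT1* near 0 was thus a sum of transcripts that pointed opposite ways, each with 44% to 47% identity to the *Arabidopsis* protein.

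*ABA2* summed 8 transcripts. The most abundant, c49037_g1_i1, had the highest identity of them, 67%, with 481, 165 and 213 counts on land and 186, 211 and 297 counts under water, and did not pass (-0.09 ± 0.31). The next, c15754_g1_i1, had 50% identity, 4, 101 and 99 counts on land and 58, 602 and 624 counts under water, and was higher (2.87 ± 0.34, adjusted p = 0.00833, and 0.0289 with the block). The other 2 transcripts that were higher, c48088_g1_i1 and c48088_g1_i2, had 48% identity (adjusted p = 0.028 and 0.0243) and did not pass with the block (0.0695 and 0.0592). *BDG1* had 2 transcripts of 55% and 56% identity, and 1 of them, c56007_g1_i2, was lower, with 596, 430 and 278 counts on land and 0, 10 and 12 counts under water (-5.85 ± 0.76, adjusted p = 0.0101, and 0.0367 with the block). The median identity over the 144 transcripts was 65%, against 58% over all transcripts with an *Arabidopsis* match, and reads shared between transcripts of 1 assembled component, as in *HIS4*, can be split uncertainly.

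**Figure D5:**
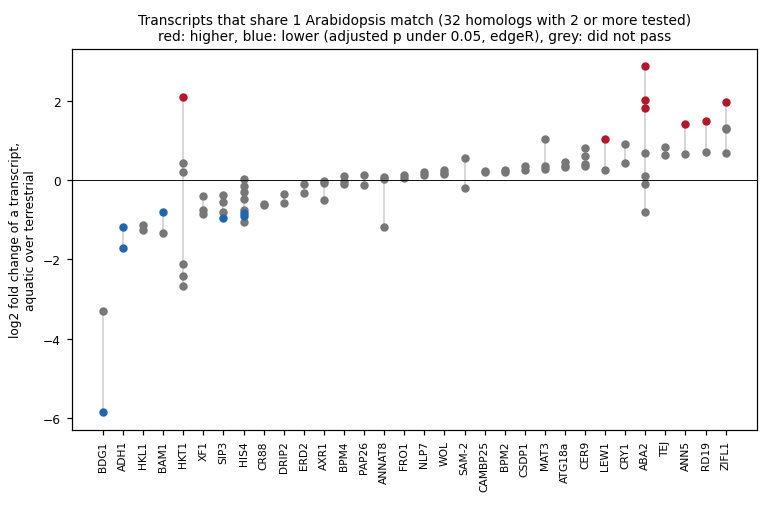
For the 32 homologs with at least 2 tested transcripts, the log2 fold change between aquatic and terrestrial plants of each transcript (vertical axis) is plotted as a point, with a line from the lowest to the highest. *HKT1* and *ABA2* spread widest across 0, and in 25 of the 32 the points lie on 1 side of 0.

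Per length of transcript, the homologs ranged widely in level. The highest mean FPKM over the 6 libraries was that of *HIS4*, at 647, and next came *SAM-2* with 565, *CR88* with 309.8, *AVP1* with 302 and *SIP3* with 166. None of these 5 passed for condition with edgeR, and DESeq2 called *CR88* and *SIP3* lower. The median over the 59 tested homologs was 22.7 FPKM, against 12.8 FPKM over all tested homologs.

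Other stress terms were common among these genes. Response to salt stress was also listed for 25 of the 68 (36.8%, against 3.56% of all homologs), response to cold for 12 (17.6% against 1.83%) and response to heat for 7. Against 9.6% higher and 6.78% lower among all tested homologs, 4 were higher and 2 lower of the 21 tested with salt stress, and 3 were higher and 1 lower of the 38 without it. The water deprivation term alone had 5 higher and 1 lower of 36 tested, and both terms together 2 higher and 1 lower of 6. The osmotic stress term alone had 0 higher and 1 lower of 17 with edgeR (3 higher and 4 lower with DESeq2, 3 and 5 at an unadjusted p under 0.05). Over all 8154 tested homologs DESeq2 called 16.8% higher and 16.1% lower, and 1595 were higher and 1468 lower at an unadjusted p under 0.05. With the replicate block (4.01% and 1.45% of all), the 2 higher homologs both carried salt stress and the water deprivation term alone, and the lower one carried the water deprivation term alone and not salt stress. The difference between these subsets was not tested.

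The wider pathway was read from lists of 77 well-known dehydration genes (osmosensing and calcium, SnRK2 and MAP kinases, transcription factors, LEA proteins and dehydrins, osmolytes, *ERD* and *RD* genes, ABA synthesis), of which 35 were found and 29 tested, 24 of these not among the 68. Of the 24, 4 were higher and 2 lower, against 9.6% and 6.78% of all tested homologs. The transcription factor gene *ATAF1* had 104, 44.1 and 14.7 CPM on land and 608, 163 and 119 CPM under water, and *ZAT10*, a zinc finger repressor, had 38.2, 10.1 and 8.68 CPM and 325, 237 and 57.3 CPM. Both rose, with log2 fold changes of 2.36 ± 0.44 and 3.67 ± 0.61 (adjusted p = 0.0302 and 0.0226), as did the LEA gene *LEA14* (2.45 ± 0.52, adjusted p = 0.0393, and 0.095 with the block) and the chloroplast protease subunit *ERD1* (0.98 ± 0.20, adjusted p = 0.0351). *P5CS2*, a synthase of the osmolyte proline, had 5.02, 5.04 and 5.08 CPM on land and 0, 0.413 and 0.185 CPM under water and fell (-4.59 ± 0.63, adjusted p = 0.0173, and 0.054 with the block), while its paralog *P5CS1* was at 0.17 ± 0.15. The mechanosensitive channel *MSL10* also fell (-0.82 ± 0.13, adjusted p = 0.020, and 0.055 with the block). *NCED3*, the dioxygenase that starts ABA synthesis, was low, at 3.04, 1.84 and 0.129 CPM on land and 1.08, 0.481 and 0 CPM under water, and overlapped between the conditions (-1.78 ± 1.13, adjusted p = 0.304).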

How the data were processed

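Reads were assembled de novo with Trinity, and TopHat and Cufflinks are named for mapping and FPKM. Versions, and the tool behind the deposited library files, are not given in the sources used here. The expected counts were estimated by the authors per assembled transcript and were whole numbers as deposited. The deposited FPKM values are the authors' levels per transcript length and library size, from before quantile normalization. The authors' deposited annotation table gives each transcript's best protein match, GO terms and percent of identical residues, and 6 columns of per-library values in it were not used here. The tables on leaf GO terms hold the authors' own sums and log2 ratios and were not used.

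Expected counts were summed per *Arabidopsis* match and tested with edgeR 4.0.16 in R 4.3.3 (quasi-likelihood, two-sided, TMM scaling, terms for harvest and condition, and a filter at a minimum count of 10), with Benjamini-Hochberg adjustment over all 8154 homologs tested. DESeq2 1.42.0 and limma 3.58.1 (log2 FPKM, pseudocounts of 1 and 0.1) were alternatives, with tables and plots in Python 3.11.15, numpy 2.4.6, pandas 2.3.3, scipy 1.17.1 and matplotlib 3.10.9. The fits were tested on simulated data. Intervals are exact (Clopper-Pearson) at 95%, and the floor is 3 counts in a library.

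The homologs and gene lists were chosen with earlier results of these data known, and roles were assigned by hand from the *Arabidopsis* gene. Values are printed in full for homologs that passed, the 5 highest in FPKM, the 8 with the largest change that did not pass among those whose higher condition had 50 or more counts per library, those whose harvests differed, the 3 largest harvest effects in each direction and list members. Others given were chosen after their values were seen.

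Libraries with the same replicate number deviated together from their condition means (correlations over homologs of 0.645, 0.518 and 0.445 for numbers 1, 2 and 3). Those of terrestrial replicate 2 with aquatic replicate 3 and terrestrial replicate 3 with aquatic replicate 2 were 0.452 and 0.559. The pairing comes from the replicate number in the labels, and blocked values stand beside the named results whose call they changed. No sequences are shown, since no reference was used here.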

Additional observations from a re-analysis of the deposited data

Results flagged for a closer look

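In 4 homologs the effect of water differed between the 14-day and the 11-day harvest by the interaction term of edgeR (values are the 14-day minus the 11-day log2 effect). The difference was -1.56 for *ABA2*, -10.02 for *BDG1*, -4.15 for *XF1* and 2.19 for *ChlAKR*. The 14-day harvest holds 1 library per condition, so each rests on 1 aquatic and 1 terrestrial library there, and the value of *BDG1* is a fit against 0 counts. Groups of 3 were too small for a search for single outlying libraries.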

How the results depend on the processing

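With the replicate block, the counts of homologs called fell from 7 to 2 higher and from 3 to 1 lower, those of transcripts from 10 to 4 and from 9 to 2. The replicate block also left 1 of 5 lower calls among the shoot apex and dividing cell markers and 1 of 3 higher *ABA2* transcripts. Without a harvest term in edgeR, 0 homologs were higher and 0 lower (9 and 5 at an unadjusted p under 0.05, with 0.307% and 0.11% of all homologs called), and 1 transcript was higher and 1 lower. In that fit 1368 of all tested homologs had an unadjusted p under 0.05. DESeq2 called 16 higher and 12 lower of 59 (16.8% and 16.1% of all homologs). With library totals over all transcripts the median of all homologs shifted to -0.13 and that of these homologs to 0.10, and 6 were higher and 6 lower (7.55% and 8.52% of all), with 7 higher and 11 lower at 14 days. Without the filter 5 were lower (6.53% of all). With limma, 7 were higher and 7 lower at either pseudocount (8.87% and 9.88% of all at 1, 9.32% and 10.1% at 0.1). With the most abundant transcript of each match 5 were lower (6.35%), and 2 interactions passed. Keeping matches with the terms otherwise left out gave 25 higher and 5 lower of 148 (9.6% and 6.78% of all), and 11 and 1 with the replicate block (4.01% and 1.45%). In this wider set the higher share was above that over all homologs and the lower share below it. This difference was not tested.

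Leaving out 1 library or 1 replicate number gave 0 to 9 higher, 0 to 12 lower, 0 to 12 higher and 0 to 10 lower at 14 days, 2 to 13 transcripts higher, 1 to 17 transcripts lower, 1 to 8 interactions and a median log2 fold change of 0.14 to 0.23. Between conditions, both counts were 0 without aquatic replicate 2, without replicate 2 and without replicate 3, where 0% of all homologs passed. In these fits 25 of 62, 11 of 60 and 10 of 59 had an unadjusted p under 0.05. Over all tested homologs these numbers were 2478, 1264 and 1369. The lower count alone was 0 without terrestrial replicate 2, terrestrial replicate 3 or aquatic replicate 3 (8, 7 and 8 at an unadjusted p under 0.05). In either direction 20, 21 and 24 of these homologs had such a p, against 2237, 2069 and 2549 of all tested homologs. Between harvests, both counts were 0 without replicate 2 or replicate 3. Here 18 of 60 and 15 of 59 had an unadjusted p under 0.05, against 2045 and 2129 of all tested homologs. Without replicate 1, 9 were higher (10.8% of all tested homologs) and 12 lower (8.93%).

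Some values that did not pass changed sign. *ABA2* was at -0.0085 with its most abundant transcript. Leaving out 1 library or replicate number moved *ChlAKR* from -0.87 to 0.23, with 0.23 without replicate 2, *WOL* from -0.33 to 0.69, with -0.33 without aquatic replicate 1, and *XF1* from -1.62 to 0.53, with 0.53 without replicate 1. The causes were not tested. Depth limits the homologs under 3 counts in a library.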
